A study of Mus musculus with 2 samples.

Results

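The ETS factors of lymphocytes described here were 8 genes of mouse, Ets1, Ets2, Fli1, Elf1, Elf4, Gabpa, Etv6 and Elk3, out of 21853 protein-coding genes. The rule that picked them uses names and no measured value, although earlier results of these data were known when they were picked. Every ATAC-seq peak with its summit inside one of the gene bodies or within 20 kb of it was taken from both libraries. That gave 139 peaks in replicate 1 and 134 in replicate 2. Joining peaks that overlapped between the libraries gave 147 regions, out of 84666 in the whole genome. ATAC-seq uses a transposase that inserts sequencing adapters into DNA not held tightly in nucleosomes, so a peak in such data is read as accessible chromatin. The cells were primary T cells of strain C57BL/6NJ, in 1 group of 2 libraries that the labels number as biological replicates 1 and 2. Sex was not collected, age and stage are given as unknown, and no genotype or treatment is named. Their donor record is one and the same, which does not tell whether 1 or several animals were used, so the spread between them may be technical. A linked protocol, named in the labels, concerns CD4+ T-cell differentiation. Peak names carry Th0, 72hrs and ASTARR.insert, terms that no source used here explains. It is therefore not known whether the sequenced fragments came straight out of cells or were inserts of a library made from them. In the second case every peak, signal and read count below would also carry the making of that library.

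ETS factors share a DNA-binding domain that reads a core of GGAA, and the bases beside the core differ in preference between family members. Many act as activators that pair with factors such as RUNX or AP-1, while others act as repressors. Ets1, the founding member, is needed for normal T-cell development and function, and Ets2 is its closest relative, a target of the MAP kinase pathway. Fli1 acts in blood stem cells, megakaryocytes and lymphocytes. Elf1 and Elf4 form a subgroup of activators in lymphocytes, and Elf4 is known to restrain the division of CD8 T cells. Gabpa encodes the DNA-binding subunit of the GABP complex, which binds many promoters of genes used in all cells and also that of Il7r. Etv6 is a repressor needed by blood stem cells, and Elk3 is a ternary complex factor that works with the serum response factor.

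All 8 promoters were accessible in both libraries, that is, each gene had a shared region whose summit lay within 1000 bp of the start of one of its coding transcripts. The same held for 62.9% of all protein-coding genes. In all, 124 of the 147 regions (84.4%) were found in both libraries, against 79.0% of the regions of the whole genome. The 124 were 10 regions at the genes' own starts, 1 at the start of a neighbour, Sugt1, and 113 distal regions. Of the distal regions 88 lay in introns, 2 in exons, 9 in the upstream and 14 in the downstream flank. All genes were cut into 10 equal classes by locus length, of which that of Ets1, Fli1 and Etv6 ran from 150 to 4475 kb. All 8 genes held more distal regions than the median of their length class, and 43% of all protein-coding genes did so. For Ets2 and Gabpa this rests on 3 regions against a median of 2, and the call was lost for Gabpa in 6 and for Ets2 in 2 of 12 alternatives, such as replicate 1 alone for both. That of Elk3 was lost with the 50000 strongest peaks of each library. With a single group there was no test between conditions, and in bulk cells a region open in fewer cells and one less open in each cell cannot be told apart.

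**Figure D1:**
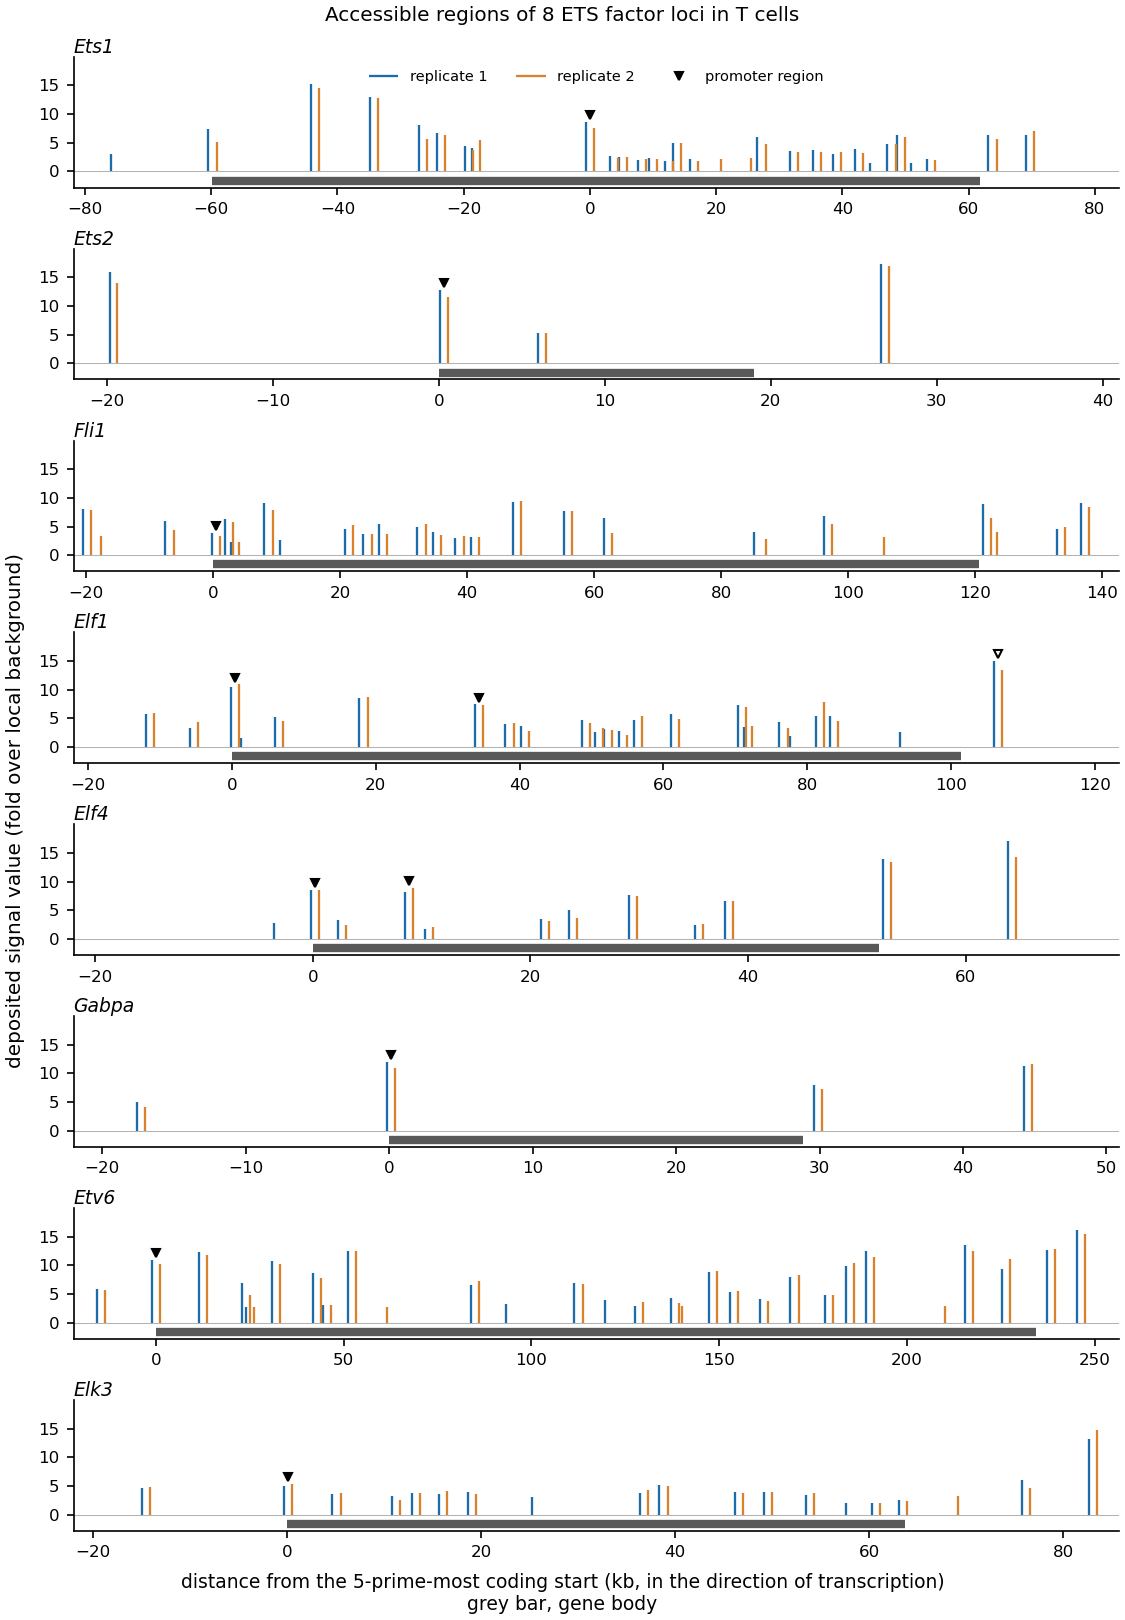
Deposited signal value (y axis, fold over local background) of every region in the 8 loci, by distance from the 5-prime-most coding start in kb (x axis, 1 panel a gene); blue lines are replicate 1 and orange lines replicate 2, drawn side by side, filled triangles mark the genes' own promoter regions and the open triangle that of the neighbour Sugt1. The lines of the libraries stand in pairs at 124 of 147 regions, and the tallest lines, at Ets2, Elf4 and Etv6, lie in the flanks.

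The authors' signal value in these lists is a fold over the local background that the peak caller estimated around each peak. It is therefore low where that background is high. Whether broad coverage or strong peaks close by raised the background was not tested. The deposited signal and −log10 p of a peak could be solved together for the number of reads covering the summit and for the local background, if the signal is the reads over the background with 1 added to both. This gave a whole number of reads, within 0.02 of a step, for 99.98% of the peaks of replicate 1 and 99.99% of those of replicate 2. No source used here states the formula, so the reads and the background rest on this reading of the values. The lowest and most frequent background, here called the floor, was 5.04 reads in replicate 1 and 3.71 in replicate 2. Total depth is not given. The median peak had 64 reads at its summit in replicate 1 and 49 in replicate 2, and −log10 q is given as deposited.

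The cells' label was compared with marker promoters. Both libraries had a promoter region at 13 of 15 T-cell genes, whereas Cd247 and Cd8a had none by the summit rule. For the other lists the counts were 3 of 7 B-cell, 3 of 8 myeloid, 3 of 5 NK and innate lymphoid, 2 of 6 erythroid and megakaryocyte, and 4 of 6 endothelial and fibroblast genes. The share over all protein-coding genes was 62.9%. Over genes with such a region, the median promoter signal was 5.99 for T-cell genes and 11.2 for all protein-coding genes. For the other lists, in the order above, it was 8.84, 8.67, 5.29, 5.78 and 7.95. More distal regions than the median of their length class, as in 43% of all genes, were held by 15 of 15 T-cell, 4 of 7 B-cell, 5 of 8 myeloid, 3 of 5 NK and innate lymphoid, 4 of 6 erythroid and megakaryocyte, and 1 of 6 endothelial and fibroblast genes. Accessible chromatin at a marker is not expression, and the part of other cell types in the regions below was not tested.

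The promoters are shown first by their sequence, the summit and 50 bases on each side of it in each gene's strongest promoter region, because the genes encode factors that bind ETS sequences themselves. All are mm10 (the GRCm38 sequence of RefSeq), written on the strand of the gene. Capitals mark an ETS sequence, CCGGAAG or CAGGAAG on either strand (CTTCCGG or CTTCCTG when read on the other one).
Ets1, chr9:32695957-32696057, plus strand: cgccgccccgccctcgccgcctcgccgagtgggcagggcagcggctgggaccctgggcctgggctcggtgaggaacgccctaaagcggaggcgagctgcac
Ets2, chr16:95702311-95702411, plus strand: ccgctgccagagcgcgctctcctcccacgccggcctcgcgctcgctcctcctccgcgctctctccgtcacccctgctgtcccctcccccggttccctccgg
Fli1, chr9:32542381-32542481, minus strand: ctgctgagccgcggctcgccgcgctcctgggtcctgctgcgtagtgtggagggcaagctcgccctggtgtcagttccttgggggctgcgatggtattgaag
Elf1, chr14:79481550-79481650, plus strand: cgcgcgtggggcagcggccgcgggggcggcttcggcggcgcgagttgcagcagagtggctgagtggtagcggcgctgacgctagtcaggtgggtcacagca
Elf4, chrX:48462845-48462945, minus strand: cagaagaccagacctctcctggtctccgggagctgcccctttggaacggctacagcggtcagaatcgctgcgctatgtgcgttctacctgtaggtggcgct
Gabpa, chr16:84834938-84835038, plus strand: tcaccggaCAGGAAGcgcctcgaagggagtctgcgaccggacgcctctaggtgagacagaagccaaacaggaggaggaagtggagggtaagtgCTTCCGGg
Etv6, chr6:134035567-134035667, plus strand: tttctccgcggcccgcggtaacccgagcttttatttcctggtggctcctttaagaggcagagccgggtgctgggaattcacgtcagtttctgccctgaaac
Elk3, chr10:93310981-93311081, minus strand: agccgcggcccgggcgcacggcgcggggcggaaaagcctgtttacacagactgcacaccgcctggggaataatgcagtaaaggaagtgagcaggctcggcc
Among these windows, that of Gabpa was the one with ETS sequences, and it held both forms, 1 near each edge of the window. Of the 10 promoter regions of the 8 genes, 1 thus held an ETS sequence, against 12.5% of the 14013 shared promoter regions of the genome. The core GGAA alone was not searched, and it stands unmarked in further windows, such as those of Elk3 and, on the other strand, Etv6. The windows were rich in G and C, with 77.2% for Ets1 and 76.2% for Ets2 at the high end and 56.4% for Etv6 at the low end.

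The promoter of Ets2 had the highest signal of the 8, with 12.8 in replicate 1 and 11.6 in replicate 2 (12.2 ± 0.845, SD, n = 2). Gabpa followed with 12.1 in replicate 1 and 10.96 in replicate 2 (11.5 ± 0.780, SD, n = 2), and the libraries' values of these genes overlapped. The Gabpa region lies between the starts of Gabpa and of Atp5j, a subunit gene of the mitochondrial ATP synthase that is transcribed the other way, so the region belongs to both. Its −log10 q of 435 and 282 and its 633 and 433 summit reads were the highest of the 8 promoters. Of all shared promoter regions, 94.4% had fewer summit reads.

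Elf1 had 10.5 and 10.9 at its first start (10.7 ± 0.304, SD, n = 2), and Etv6 had 10.97 and 10.2 (10.6 ± 0.566, SD, n = 2). The values of these genes overlapped and lay at the middle of all promoter regions, whose median mean signal was 10.5. The Elf1 region also covers the start of Wbp4, a splicing factor gene on the opposite strand, which lies 80 bp from the summit. Elf1 had a further region at its internal starts, 34.4 kb downstream at 79515291 to 79516453 on chromosome 14, with 7.44 in replicate 1 and 7.42 in replicate 2.

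Elf4 had 8.60 in replicate 1 and 8.52 in replicate 2 at its first start (8.56 ± 0.0532, SD, n = 2). Its internal start 8.8 kb downstream had 8.15 and 8.93, so the libraries put these starts in opposite order. By reads the internal start was the higher in both, with 189 and 165 summit reads against 130 and 99 at the first start. The Ets1 promoter had 8.67 in replicate 1 and 7.63 in replicate 2 (8.15 ± 0.741, SD, n = 2), which overlapped the values of Elf4. The 442 and 296 summit reads at Ets1, however, were about those of Ets2 (450 and 311), and 80.8% of promoter regions had fewer.

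By signal Elk3 and Fli1 had the weakest promoters, and neither overlapped its neighbour in the order. Elk3 had 4.92 in replicate 1 and 5.29 in replicate 2 (5.10 ± 0.261, SD, n = 2), and 12.9% of promoter regions had a lower signal. The 216 and 161 summit reads at Elk3, however, were more than the 130 and 99 at the first start of Elf4. By reads, 46.5% of promoter regions were lower than Elk3. In the broad Elk3 region the summits differed by 1292 bp between the libraries. The summit of replicate 2 lay 62 bp from a start and that of replicate 1 lay 1230 bp away, so the call rests on replicate 2. The signal of 4.92 and the 216 reads of replicate 1 thus belong to a summit outside the promoter distance. The Elk3 mean and SD therefore join differing positions and do not measure the spread at the start. Replicate 1 alone had a further weak region, with a signal of 3.12, at an internal start of Elk3, which keeps the gene in the count of 8 when each library's own summit is used. Fli1 had 3.88 in replicate 1 and 3.40 in replicate 2 (3.64 ± 0.343, SD, n = 2), and 5.27% of promoter regions were lower. By reads Fli1 was the lowest of the 8 as well, and 21.7% of promoter regions had fewer. A stronger Fli1 region, at 32540076 to 32541588 on chromosome 9 with 6.29 and 5.75, had its summit 1219 bp from a start and so fell just outside the promoter class. The next beyond the limit, at 1704 bp in Elf4, had 1.80 and 2.07. Among regions just inside the limit, the Elk3 region of replicate 1 lay at 472 bp and the Fli1 promoter at 430 bp.

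**Figure D2:**
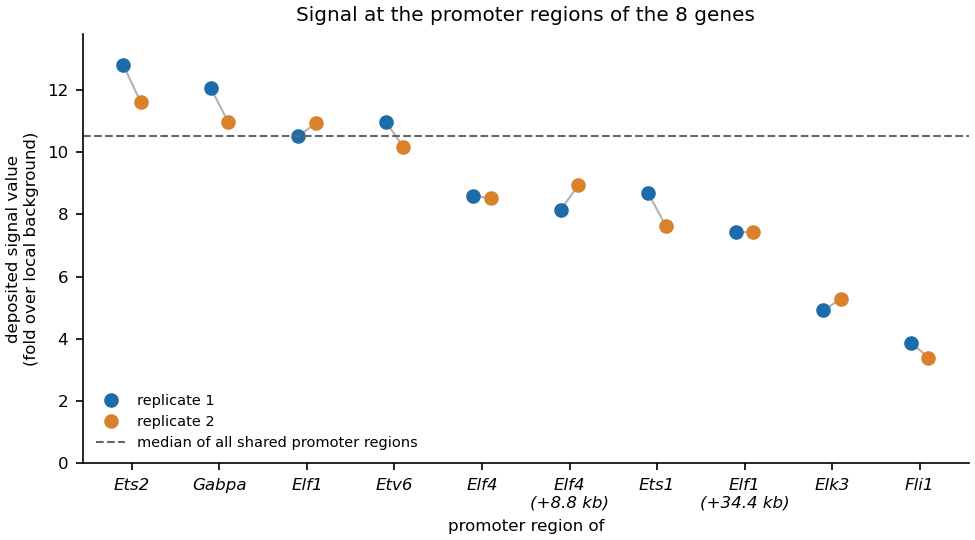
Deposited signal value (y axis, fold over local background) at the 10 promoter regions of the 8 genes (x axis), with 1 point for each library and a line joining the points of a region; the dashed line is the median of all shared promoter regions. Ets2 and Gabpa lie above the 10.5 of the median in both libraries, and Elk3 and Fli1 lie lowest.

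Ets1 and Etv6 held the most distal regions of the 8 genes, 24 and 23, and their order turned or was lost with other settings: Ets1 had 8 and Etv6 16 with the 50000 strongest peaks, and both had 26 in replicate 2 alone. With flanks of 100 kb Elk3 had the most, 37, against 35 at Ets1. The Ets1 body, 32636221 to 32757820 on chromosome 9 (plus strand), and flanks held 24 shared distal regions, where the median of its length class was 5 and 96.6% of genes in the class had fewer. The regions fell into stretches that differed in background, which were divided after the values were seen. Upstream of the coding starts lay 7 regions with a local background of 1.00 to 3.66 times the floor in replicate 1 and 1.00 to 4.08 in replicate 2. They included the highest signals of the locus, 15.2 and 14.5 at −43.6 kb and 12.96 and 12.8 at −34.2 kb. Another of the 7, at −59.8 kb with 7.45 and 5.09, lay 39 bp from the annotated start of an Ets1 transcript annotated as a retained intron, and counted as distal because only coding starts were used. Between the coding starts and the end of the gene lay 15 regions, and there the background was 9.82 to 21.1 times the floor in replicate 1 and 9.53 to 20.8 in replicate 2. The 2 regions past the end of the gene were back at 1.91 to 2.36 times the floor in replicate 1 and 1.86 to 2.27 in replicate 2.

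This raised stretch changed how the Ets1 regions ranked. The region with the most reads, 49.3 kb past the start in intron 6 at 32744838 to 32746248, had a signal of 6.32 in replicate 1 and 6.07 in replicate 2. By signal it was number 28558 of the 52834 shared distal regions of the genome, near the middle. It had 676 and 474 reads at its summit, more than 99.8% of the 52834, and a −log10 q of 295 and 200. Its neighbour at 47.8 kb had 4.78 and 4.72 by signal, or number 38030, and 476 and 344 reads, or number 560. Because the signal is divided by the background, a region of given signal must have more reads where the background is higher, and the next values describe that and test nothing. The 9 Ets1 distal regions past the coding starts with a signal of 2 to 4 in both libraries had a median −log10 q of 31.2 and 14.2 and a median of 191 and 115 summit reads. All 7043 such regions of the genome had medians of 7.25 and 5.44 for −log10 q, and of 36 and 28 for reads.

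**Figure D3:**
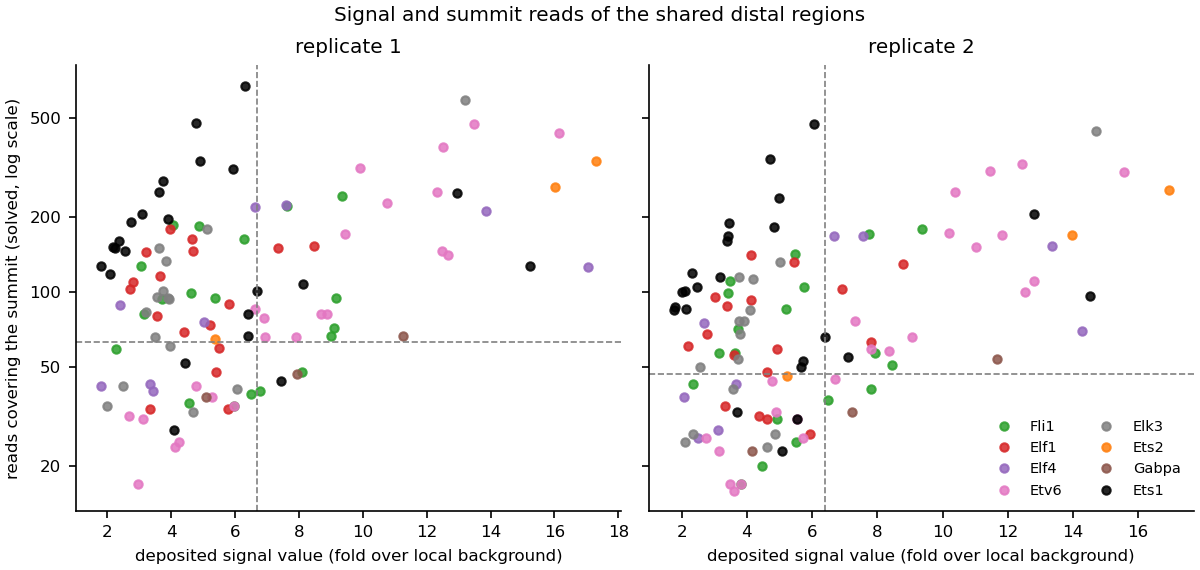
Reads covering the summit (y axis, log scale, solved from the deposited values) against the deposited signal value (x axis, fold over local background) of the 113 shared distal regions in the 8 loci, with 1 panel a library; dashed lines are the medians of all shared distal regions. Most Ets1 points (black) lie above the median of reads and left of the median of signal, and the highest, with 676 and 474 reads, has a signal of 6.32 and 6.07.

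Over genes with at least 5 shared distal regions in the body, the median background under the Ets1 regions was 12.8 times the floor, number 8 of 1763 genes, and the median gene had 1.62. Others of the 8 genes were also in the upper part of this order: Elk3 had 4.96, Fli1 4.88, Elf4 4.67 and Elf1 4.15, while Etv6 had 1.91. Ets2 and Gabpa had too few regions in the body. Of the 113 distal regions of the 8 genes, 79 (69.9%) had a background of at least 2 times the floor in both libraries, against 36% of all shared distal regions. The median distal region of the 8 genes had a lower signal than that of the genome, 5.09 and 4.84 against 6.68 and 6.41, but more reads, 95 and 68 against 63 and 47.

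**Figure D4:**
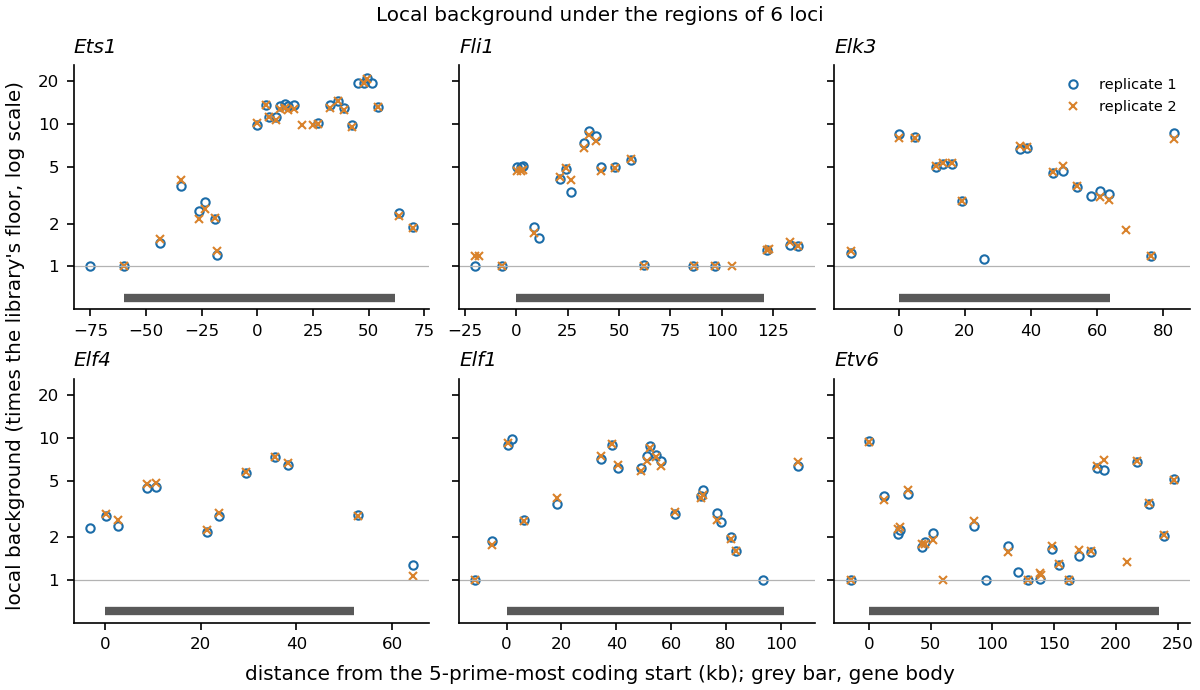
Local background under each region (y axis, log scale, times the floor of the library) by distance from the 5-prime-most coding start in kb (x axis) in 6 of the loci; circles are replicate 1, crosses replicate 2 and grey bars the gene bodies. In Ets1 the values step to between 9.53 and 21.1 from the start to the end of the gene, and in Fli1 they are higher within 60 kb of the start than farther along.

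Fli1 lies next to Ets1 on chromosome 9, at 32422204 to 32542861 on the minus strand. Its 19 shared distal regions compare with a class median of 5, and 92.7% of the class had fewer. The locus was divided at 60 kb after the values were seen. The 12 regions within 60 kb of the start had a background of 1.88 to 9.00 times the floor in replicate 1 and 1.70 to 8.39 in replicate 2. The 5 farther along had 1.00 to 1.42 in replicate 1 and 1.00 to 1.48 in replicate 2. The strongest, in intron 1 at 47.9 kb, had a signal of 9.35 in replicate 1 and 9.38 in replicate 2, with 244 and 180 reads. That at 137.4 kb in the downstream flank had 9.09 and 8.46, but 72 and 51 reads. Fli1 also held the region that differed most between the libraries among the 124, with 6.49 in replicate 1 and 3.82 in replicate 2 at 62.2 kb.

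Etv6, the longest of the genes at 134035700 to 134270158 on chromosome 6 (plus strand), held 23 shared distal regions, and 96.1% of its class had fewer. The locus was divided at 180 kb after the values were seen, so the values on each side are a description. The 6 regions past this point had signals of 9.44 to 16.1 in replicate 1 and 10.4 to 15.6 in replicate 2. The 16 in the first 180 kb past the start had 2.67 to 12.5 in replicate 1 and 2.76 to 12.5 in replicate 2, so the groups overlapped. By reads those past 180 kb had from 141 to 473 in replicate 1 and 111 to 327 in replicate 2, against 17 to 252 and 16 to 173 in the first 180 kb. The strongest, 246.5 kb from the start and beyond the end of the gene, had a signal of 16.1 and 15.6 and 434 and 304 reads. No protein-coding neighbour reached into this locus.

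Elf1, at 79481194 to 79582494 on chromosome 14 (plus strand), held 17 shared distal regions, and 99.0% of its class had fewer, the highest share among the 8. They were of moderate signal, from 2.71 to 8.48 in replicate 1 and from 2.18 to 8.80 in replicate 2. The strongest lay in intron 1 at 18.3 kb, with 8.48 and 8.80. The region at 81.8 kb differed most in the other direction, with 5.49 in replicate 1 and 7.81 in replicate 2. Of the 17 Elf1 distal regions, 2 lie in the body of Wbp4, and to which gene they belong was not tested. The Sugt1 start, in the downstream flank, had 15.1 and 13.5 and is no region of Elf1. Sugt1 encodes a chaperone partner.

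Elk3, at 93247414 to 93311135 on chromosome 10 (minus strand), held 15 shared distal regions, and 98.3% of its class had fewer. Its 12 regions in the body had signals of 1.99 to 5.13 in replicate 1 and 2.10 to 5.01 in replicate 2. The strongest by far stood in the downstream flank at 83.1 kb, 93227670 to 93228516, with 13.2 in replicate 1 and 14.7 in replicate 2 and 592 and 442 reads, number 184 of all distal regions by reads. It lies inside the body of Cdk17, a kinase gene on the opposite strand that overlaps the end of Elk3. In all, 7 of the 15 Elk3 distal regions lie in Cdk17, and to which gene they belong was not tested.

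Elf4, at 48411046 to 48463132 on chromosome X (minus strand), held 9 shared distal regions, and 95.2% of its class had fewer. The strongest lay past the end of the gene, with 17.1 in replicate 1 and 14.3 in replicate 2 at 64.3 kb, inside the body of Bcorl1, a corepressor gene. The next, 13.9 and 13.4 at 52.8 kb, lay between these genes. Those in the Elf4 body reached 7.61 and 7.57 at 29.4 kb.

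Ets2 and Gabpa were the sparse loci, with 3 shared distal regions each. The class median was 2, and 57.5% of the class of Ets2 and 53.9% of that of Gabpa had fewer. The few at Ets2, whose body is 95702075 to 95721051 on chromosome 16 (plus strand), were strong. A region in the downstream flank at 26.9 kb, 95728606 to 95729338, had 17.3 in replicate 1 and 16.9 in replicate 2, the highest mean signal of the 113, and 99.3% of all shared distal regions were lower. Another in the upstream flank at −19.6 kb had 16.0 and 13.98. The Gabpa body, 84834925 to 84863779 on the same chromosome (plus strand), held no distal region, and its flanks held regions of 11.3 and 11.7 at 44.5 kb, 7.94 and 7.21 at 29.9 kb, and 5.09 and 4.17 at −17.3 kb, inside Jam2. These had a background of 1.00 to 1.32 times the floor in replicate 1 and 1.00 to 1.28 in replicate 2.

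**Figure D5:**
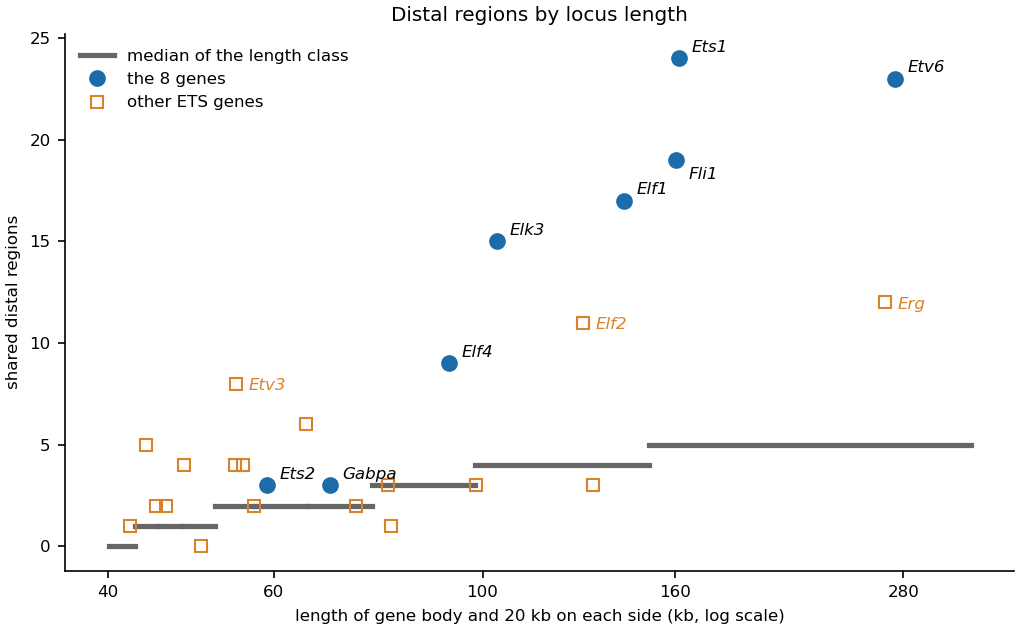
Number of shared distal regions (y axis) by length of the locus, gene body and 20 kb on each side (x axis, kb, log scale), for the 8 genes (filled circles) and 18 other ETS genes (open squares); bars give the median of all protein-coding genes in each of 10 classes by length. Ets1 with 24 and Etv6 with 23 lie highest, and Ets2 and Gabpa with 3 lie just above their bars.

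Letters around the distal summits were searched in the same way. An ETS sequence lay within 50 bp of the summit in 10 of the 113 distal regions (8.85%), against 9.68% of all shared distal regions. The 10 were 3 each at Etv6 and Elk3, 2 at Elf1 and 1 each at Fli1 and Elf4, and none was at Ets1, Ets2 or Gabpa. Below, the strongest region with an ETS sequence is given for each gene that had one, together with the Ets1 region of most reads. Capitals mark an ETS sequence as before or the AP-1 sequence TGANTCA.
Ets1 at 49.3 kb, chr9:32745285-32745385, plus strand: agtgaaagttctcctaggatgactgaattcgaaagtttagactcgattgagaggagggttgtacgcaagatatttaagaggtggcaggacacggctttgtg
Fli1 at 24.3 kb, chr9:32518469-32518569, minus strand: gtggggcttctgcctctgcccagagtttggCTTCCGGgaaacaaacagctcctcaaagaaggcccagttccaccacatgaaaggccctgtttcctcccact
Elf1 at 40.8 kb, chr14:79521895-79521995, plus strand: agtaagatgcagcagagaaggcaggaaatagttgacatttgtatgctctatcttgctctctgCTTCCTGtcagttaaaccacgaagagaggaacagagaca
Elf4 at 29.4 kb, chrX:48433633-48433733, minus strand: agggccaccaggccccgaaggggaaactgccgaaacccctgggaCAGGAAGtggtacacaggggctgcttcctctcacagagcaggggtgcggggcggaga
Etv6 at 216.5 kb, chr6:134252169-134252269, plus strand: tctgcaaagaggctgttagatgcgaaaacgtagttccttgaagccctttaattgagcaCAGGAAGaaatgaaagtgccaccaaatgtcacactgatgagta
Elk3 at 76.2 kb, chr10:93234910-93235010, minus strand: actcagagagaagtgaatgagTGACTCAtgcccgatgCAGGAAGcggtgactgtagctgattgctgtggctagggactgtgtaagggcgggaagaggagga
The Ets1 window, which had the most reads of the 113, held neither sequence. That of Elk3 held both, and the Fli1 window was the one distal window with the CCGGAAG form. The Elf1 window was centred on the summit of replicate 1, and that of replicate 2 lay 246 bp away. No match says that these letters are absent from the window and nothing about binding of a factor.

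The other sequences searched, all on both strands in the same windows, were near their share in all distal regions for AP-1 (21 of 113, 18.6% against 22.2%), for the RUNX sequence TGNGGT (28, 24.8% against 27.0%) and for the E box CAGNTG (31, 27.4% against 27.5%). The STAT sequence TTCNNNGAA lay in 11 (9.73% against 4.92%), CCAAT in 7 (6.19% against 10.7%), the TCF1 and LEF1 sequence TCAAAG in 6 (5.31% against 9.37%) and the CTCF sequence in 2 (1.77% against 5.51%). These are counts of few regions that share loci, and no test was made of them.

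The replicates gave the same picture of these loci. Signal in replicate 1 was a median of 1.04 times that in replicate 2 over the 124 shared regions, as it was over all shared regions, and the ratios ran from 0.703 to 1.70. Log2 ratios spread with an SD of 0.21 in these loci and 0.23 over all shared regions. Of the 23 regions found in a single library, 13 were in replicate 1 and 10 in replicate 2, and all were weak. The strongest of replicate 1 was in intron 3 of Etv6 at 120.8 kb with a signal of 3.99, and that of replicate 2 was in the downstream flank of Fli1 at 122.9 kb with 4.08. Because depth is unknown, absence from 1 list may mean only that the region did not reach the caller's threshold. In the raised stretch of Ets1 even such regions had many reads, with 155 in replicate 1 at 45.0 kb and 84 in replicate 2 at 24.9 kb.

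The other ETS genes were compared as a group of 19, of which 18 were matched to the annotation. By the summit of the joined region, 11 of the 18 had a promoter region in both libraries. This compares with 8 of 8 in the genes described here and 62.9% of all protein-coding genes. Fev and Spib had a promoter region in replicate 2 alone, and Etv2, Erf, Ehf, Spic and Spdef had none by this rule. With the peaks of replicate 2 alone and their own summits 14 had one, so none by this rule is not absence from both libraries. Their strongest promoters were those of Etv5 (14.3 ± 1.01), Elk1 (13.4 ± 0.711) and Etv4 (13.1 ± 0.384, SD, n = 2 each), all above that of Ets2. The median over the 8 genes was 16 distal regions and that over the 18 others was 3, and 11 of the 18 were above the median of their length class, against 43% of all protein-coding genes. Erg held 12, Elf2 11 and Etv3 8, while Ets1, Etv6, Fli1, Elf1 and Elk3 held 15 or more. Loci differ in length, and the lists were chosen with earlier results in view, so no test was made. Of the partners of Gabpa, Gabpb1 had a promoter signal of 9.87 in replicate 1 and 9.18 in replicate 2, and Gabpb2 had 9.59 and 9.89.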

How the data were processed

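The authors deposited 1 narrowPeak list per library on mm10, called on that library alone, per the deposited notes. The aligner, caller, versions and threshold are not given in the sources used here. The authors' score is a display value of at most 1000. The deposited signal is a ratio, read from its values as fold over local background, and the deposited −log10 p and −log10 q are those of each library. Reads carry no stated scaling between libraries, and depth is not given.

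The standard chromosomes were used (78016 peaks in replicate 1 and 74653 in replicate 2). Peaks of the libraries that overlapped by at least 1 bp were joined, and the joined region took the summit of the stronger peak. Starts were the 54361 coding transcript starts of GENCODE mouse release 21, and sequence came from the RefSeq GRCm38 genome, of the same coordinates. Distances in kb run from the 5-prime-most coding start in the direction of transcription. Summit reads and background were solved as described, a step added after seeing the data. Its code was checked on values simulated with the same formula, which cannot tell whether the caller used that formula. Python 3.11.15, pandas 2.3.3, scipy 1.17.1, pysam 0.24.0 and samtools 1.23.1 were used. The members and lists were chosen with earlier results of these data known. The rule named all 8 genes, every region at their starts, the strongest distal and single-library regions, and other ETS genes without a promoter region, with the 3 strongest promoters or with the most distal regions. Alternatives were peak thresholds, overlap, promoter distances, starts, flanks, windows and each library alone. Values are mean ± SD over 2 libraries.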

Additional observations from a re-analysis of the deposited data

How the results depend on the processing

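All 8 promoters were called under 8 of the 9 alternatives tried. With the 50000 strongest peaks of each library 6 were, without Elk3 and Fli1, and 57.0% of all protein-coding genes had a promoter region. That share reached 66.2% with promoters within 2000 bp. The 113 shared distal regions became 48 with the 50000 strongest peaks and 175 with flanks of 100 kb, and the other alternatives gave 90 to 139. Each library alone gave 123 to 128. The 23 regions of a single library became 15 with −log10 q of at least 5 and 42 with flanks of 100 kb. The median replicate ratio stayed between 1.03 and 1.04. Of the 8 genes above the median of their length class, Gabpa was lost in 6 alternatives and Ets2 in 2, while Elk3 was lost with the 50000 strongest peaks. The count was 6 with replicate 1 alone and 7 with replicate 2 alone, where 42.9% and 41.9% of all protein-coding genes were above. This share ran from 29.6% with the gene body alone to 47.3% with flanks of 100 kb. The 11 windows with an ETS sequence became 26 with 100 bases to each side of the summit and 7 with 25, as more or fewer bases were searched. They were 14 with the summits of replicate 1 and 10 with those of replicate 2. No share over all regions is given for these settings. Of the 18 other ETS genes, 8 had a promoter region within 500 bp, against 58.7% of all protein-coding genes. In replicate 2 alone 14 had one, against 63.8%, and the other alternatives lay between. Of 105 values for single genes or regions, 15 were counted as moved, for the distal counts by a fixed limit on the fold change. Among them was the distal count of Ets1, which was 8 with the 50000 strongest peaks. Another was set down as moved beforehand, since it compares signal with reads and is no alternative setting. It was the place of the Ets1 region at 49.3 kb, with 45.9% of distal regions lower by signal and 99.8% by reads. No paired analysis was possible because there was 1 group. With 2 libraries of unknown depth, a missing region is not shown to be closed.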

Other observations

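The surroundings of Ets1 were looked at after its raised stretch had been seen, and the intervals were chosen then. The 53.4 kb between the flanks of Fli1 and Ets1 held 4 shared regions, none at a coding start. The strongest, at −104.1 kb from the Ets1 start, 32591719 to 32592614 on chromosome 9, had a signal of 11.2 in replicate 1 and 11.3 in replicate 2 and 373 and 303 summit reads.

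From 20 to 300 kb past the end of Ets1 the annotation has no protein-coding gene body, and names the long non-coding RNA genes Gm3331, Gm27162 and Gm27166. This interval held 26 regions, of which 22 were shared. Among them was a group 214.6 to 245.5 kb from the Ets1 start. In it, the region at 219.9 kb had a signal of 11.9 in replicate 1 and 11.5 in replicate 2, with 371 and 261 reads on a background of 5.99 and 5.89 times the floor. The region at 245.5 kb had 7.45 and 7.33, on a background of 7.20 and 7.15. The region at 243 kb had a signal of 2.30 and 2.20 and yet 87 and 61 reads. To which gene these regions belong was not tested.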
